A study of Homo sapiens with 6 samples.

Results

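The genes described here are 10 cytokine genes whose products tumour cells can send to macrophages, namely *CSF1*, *CSF2*, *MIF*, *IL6*, *LIF*, *IL18*, *IL32*, *IL23A*, *TGFB1* and *TGFB2*. They were chosen by symbol for that role, not for a measured value, though with earlier results of these data known. They are 10 of the 19225 genes in the table. *IL6* had 0 reads in each library, and the other 9 genes passed the filter on low values (a mean of at least 0.5 FPKM over all libraries) that left 12884 genes for testing. The RNA came from SW480, an established line of colon cancer cells whose p53 is mutant. The 6 libraries comprised 3 from control cells and 3 from cells that received plasmids encoding MDM4, a partner of MDM2 that restrains p53, and the labels give plasmid transfection as the treatment of both groups. What the control plasmid carried, the dose and the time between transfection and harvest are not given in the sources used here. Transient transfection reaches only a share of the cells, and the RNA is that of the whole culture, so that fewer expressing cells and less RNA per cell cannot be told apart. Nothing states that the libraries of a group came from separate cultures, so p-values measure only the spread between these libraries, which may be technical.

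Cytokines of this kind work as signals between a tumour and its myeloid cells. CSF1 and CSF2 keep monocytes and macrophages alive and set their state, MIF and the transforming growth factors bear on their movement and activation, and IL-6, LIF, IL-18, IL-23 and IL-32 carry inflammatory or suppressive signals. Most of these proteins are also controlled after transcription, by cleavage of a precursor, by release from a latent complex or by pairing with a second subunit, none of which RNA shows. The question that these libraries can address is whether the transcripts of such signals differed between control cells and cells given MDM4.

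Expression is given as FPKM, the reads on a gene divided by its length and by the total of its library, so that levels can be compared between genes, and the values of a group are always listed in the order of replicates 1, 2 and 3. Reads on genes were between 35522947 and 44563621 in the control libraries (median 40086642) and between 32923184 and 36274609 in the MDM4 libraries (median 34587026). *MDM4* itself measured 6.35, 7.09 and 5.13 FPKM in control and 188, 185 and 56.3 FPKM in MDM4 libraries. Each MDM4 library was above each control library, and MDM4 replicate 3 was the lowest of its group by far. The fitted log2 fold change of *MDM4* was 4.33 (SE 0.43), with an adjusted p of 0.161 in limma without a block and 4.77e-05 with the replicate number as a block.

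Replicate 3 stood apart in both groups. With the replicate number tested across both groups (limma F test, adjusted p under 0.05, a test chosen after values were seen), 34.2% of all genes tested differed between replicate numbers. The cytokine genes are therefore also described by replicate number, and most of them over replicates 1 and 2 alone. What sets replicate 3 apart is not given in the labels and was not tested.

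The libraries carried the RNA of colon epithelial cells. *KRT8*, *KRT18* and *KRT19*, keratins of simple epithelia, had control means of 1768, 1672 and 1024 FPKM and MDM4 means of 1684, 1553 and 958 FPKM, and the epithelial adhesion gene *EPCAM* had a control mean of 164 FPKM, against 158 FPKM in the MDM4 libraries. Of the 7 epithelial markers tested, 6 had a log2 fold change below 0, beside 52.8% of all genes. The summed level of the 8 listed was 4902, 4548 and 4544 FPKM in control and 4520, 4425 and 4221 FPKM in MDM4 libraries. The part of this difference in the cytokine values was not tested. *KRT20*, a keratin of mature colon cells, was low, with group means of 0.369 and 0.397 FPKM. Of 11 macrophage markers, 3 passed the filter (*CD68*, *CD14* and *LYZ*), and *CD68*, which is also found in lysosomes of other cells, was the most abundant, at 4.54 ± 0.410 FPKM in control and 4.63 ± 0.315 FPKM in MDM4 libraries (SD, n = 3). *MRC1* was at 0 in each library, and 7 markers lay above 0 but below the filter. Of these, *CD163*, *PTPRC*, *AIF1*, *TYROBP* and *FCGR3A* had at most 4 reads in any library, *CSF1R* had 7 to 27 reads, and the other was *ITGAM*. The summed level of the 11 markers lay between 5.94 and 7.34 FPKM. *CD14* had group means of 0.639 and 0.508 FPKM and *LYZ* of 0.862 and 0.566 FPKM in control and MDM4 libraries. The part of other cells in the cytokine values was not tested.

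The cytokine genes differed far more from each other than between the groups. *MIF* made up 80.4% of the summed FPKM of the 10 genes in the control libraries and 80.0% in the MDM4 libraries, and stood 15.7-fold above the next gene, *LIF*, in control. *LIF*, *IL32*, *CSF2* and *TGFB1* followed with control means between 23.9 and 38.7 FPKM, then *IL18* and *IL23A* at 11.8 and 9.06 FPKM, *CSF1* at 2.04 FPKM and *TGFB2* at 0.921 FPKM. The order of the means was the same in both groups. Some neighbours in that order did not differ beyond their spread. The libraries of *LIF* and *IL32*, and those of *CSF2* and *TGFB1*, overlapped in both groups, and those of *IL32* and *CSF2* overlapped in the MDM4 group alone. Against all genes above 0, *MIF* was above 99.5% of them, *LIF* above 87.8%, *CSF1* above 35.2% and *TGFB2* above 29.3%.

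**Figure D1:**
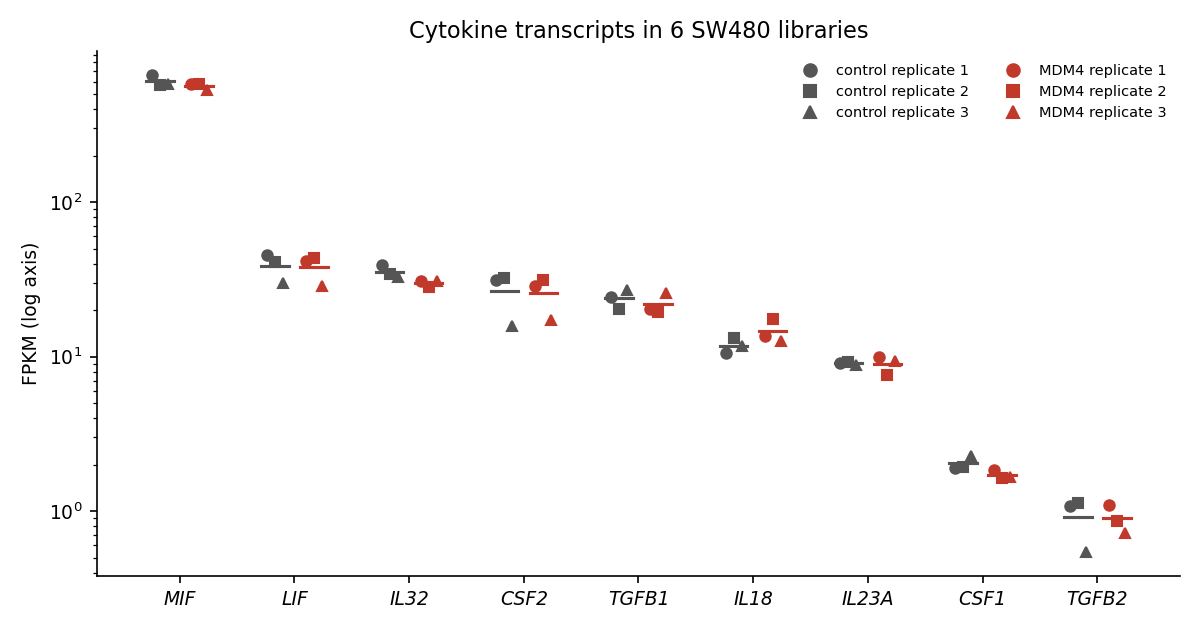
FPKM (log axis) of the 9 cytokine genes above 0 in each of the 3 control (grey) and 3 MDM4 (red) libraries; the symbol gives the replicate number and the bar the group mean. MIF lies far above the other genes, the grey and red bars of a gene lie close together, and replicate 3 (triangles) is the lowest library of both groups in CSF2, LIF and TGFB2.

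No cytokine gene passed the test for differential expression between the groups. By the rule used (log2 fold change beyond 1 in either direction, and limma p after Benjamini-Hochberg adjustment over all 12884 genes below 0.05), 0 of the 9 genes tested were differentially expressed genes (DEGs), beside 0.0% of all genes, and voom on recovered reads called 0 of the 9 as well. Without adjustment 1.72% of all genes, 222 in number, had a p under 0.05, with *IL32* the only cytokine gene among them. With the replicate block 2 genes were DEGs (0.0155%), *MDM4* and *CKMT1B*; the latter is named after its value was seen and has a near-identical copy, so that its reads are uncertain. Over replicates 1 and 2 alone there were 37 DEGs (0.29%), and no cytokine gene was a DEG in either fit. Unadjusted p-values under 0.05 were found for 2 of the 9 genes, *IL18* and *IL32*, in both of these fits, beside 12.6% of all genes with the block and 8.24% over replicates 1 and 2 alone; in the latter 0.581% of all genes, and 0 of the 9, passed after adjustment. The log2 fold changes of the 9 genes had a median of -0.04 and ran from -0.24 to 0.30, against a median of -0.01 over all genes tested. Of the 9 genes, 7 had a log2 fold change below 0, as had 52.8% of all genes, and 5 of 9 with each library scaled to the same total (TPM). That scaling also took the median log2 fold change over all genes tested to 0.02. The median absolute log2 fold change was 0.11 for the cytokine genes and 0.08 for all genes.

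Counted by single libraries, 2 of the 9 genes, *CSF1* and *IL32*, had each MDM4 library below each control library, which was so for 3.76% of all genes, and none had each MDM4 library above, which was so for 3.1% (6.85% in either direction). Both cases sit close to the limit, since *CSF1* overlapped once values were scaled to TPM and *IL32* overlapped under median ratio scaling. Within same-numbered pairs, *CSF1*, *IL32* and *TGFB1* were lower with MDM4 in each of the 3 pairs (18.6% of all genes) and *IL18* was higher in each (16.6%).

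**Figure D2:**
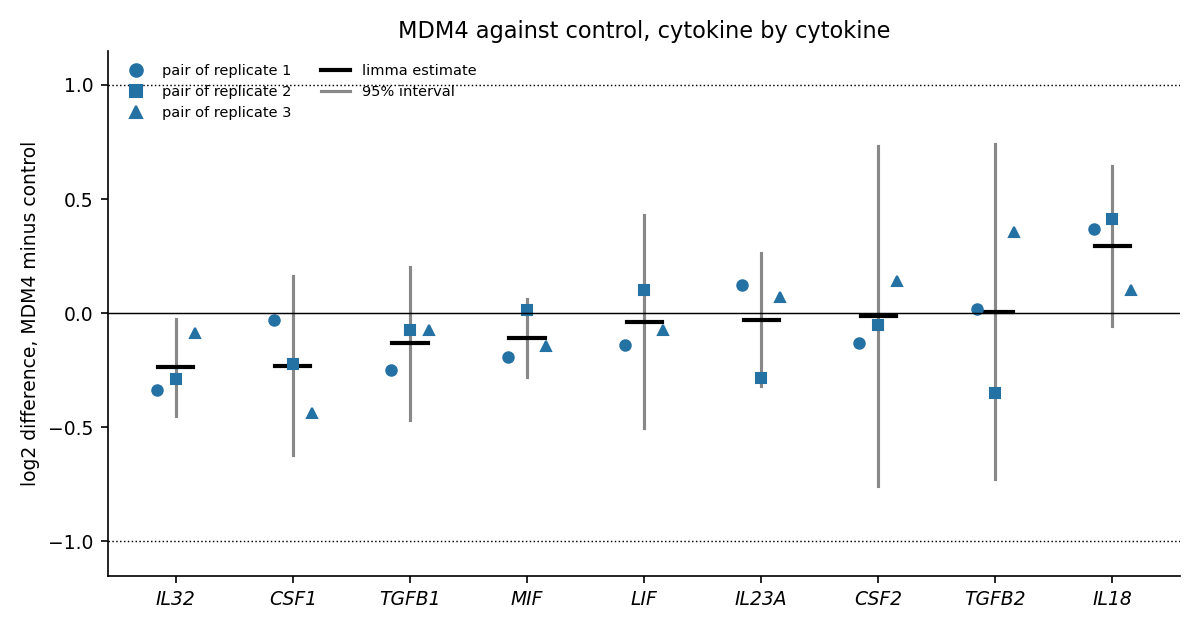
Log2 difference, MDM4 minus control, for each cytokine gene; blue symbols are the same-numbered pairs of libraries, black bars the limma estimate on log2(FPKM + 0.1), grey lines its 95% interval and dotted lines the fold limit of a DEG. Estimates run from -0.24 for IL32 to 0.30 for IL18, all lie inside the dotted lines, and the intervals of CSF2 and TGFB2 are the widest.

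The colony-stimulating factors were expressed at very different levels. *CSF1*, whose product is the main survival factor of macrophages and the ligand of CSF1R, lies on chromosome 1 from 109910242 to 109930992 (plus strand, GENCODE release 29 on GRCh38, as for all genes below). It was at 1.89, 1.94 and 2.29 FPKM in control and at 1.85, 1.65 and 1.66 FPKM in MDM4 libraries, from 166 to 278 reads. The highest MDM4 library, replicate 1, was just under the lowest control library. The means were 2.04 ± 0.215 and 1.72 ± 0.115 FPKM (SD, n = 3), a ratio of 0.844 (exact two-sided permutation p = 0.1, the smallest that 3 against 3 libraries allow). The log2 fold change was -0.23 (SE 0.17, 95% interval -0.62 to 0.16, limma adjusted p = 1.0). By pairs, the log2 differences were -0.03, -0.22 and -0.44, so that most of the difference came with replicates 2 and 3. Replicates 1 and 2 alone gave a log2 fold change of -0.13 (SE 0.17, adjusted p = 0.866), and leaving out control replicate 3 gave -0.15. Counting error alone gives a coefficient of variation of 7.76% in the library with fewest *CSF1* reads, beside 10.5% and 6.66% observed in the control and MDM4 libraries.

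*CSF2*, which codes for GM-CSF, a growth and activation factor of granulocytes and macrophages, lies on chromosome 5 from 132073790 to 132076170 (plus strand). It was at 31.5, 32.4 and 15.7 FPKM in control and at 28.8, 31.2 and 17.3 FPKM in MDM4 libraries. Replicate 3 had about the same low level in both groups, and the groups overlapped. Its group means of 26.5 ± 9.38 and 25.8 ± 7.43 FPKM (SD, n = 3) were close (exact two-sided permutation p = 0.8), and the log2 fold change of -0.01 (SE 0.32) had a 95% interval of -0.76 to 0.73. The interval thus takes in changes of up to 1.66-fold upward. By replicate number, *CSF2* had the smallest p of the cytokine genes. Replicate 3 was at 0.492 of the mean of replicates 1 and 2 in control and at 0.577 in the MDM4 group. The log2 difference of replicate 3 from replicate 1 over both groups was -0.87 (limma F test of the replicate number, adjusted p = 1.94e-04). With replicate 3 left out of both groups, the log2 fold change was -0.09 (SE 0.08, adjusted p = 0.803).

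The promoter of *CSF2* is shown because this gene varied most with the replicate number; the sequence holds the 250 bases before the RefSeq start (GRCh38.p14, plus strand, chr5:132073539-132073788), and capitals mark a match to the GAS motif, a response element of cytokine signalling.
CSF2: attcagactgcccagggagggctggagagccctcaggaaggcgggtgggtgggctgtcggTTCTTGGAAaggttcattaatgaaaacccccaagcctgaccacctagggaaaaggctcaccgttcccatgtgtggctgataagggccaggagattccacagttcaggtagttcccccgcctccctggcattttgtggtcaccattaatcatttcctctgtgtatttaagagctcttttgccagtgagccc
RefSeq's table held such a window for 7 of the 10 genes and not for *CSF1*, *IL18* or *LIF*, and 4 motifs were searched on both strands: the ISRE, GAS (TTCNNNGAA), AP-1 (TGANTCA) and the NF-κB consensus. The GAS letters were in 1 of the 7 promoters, as in 6.57% of 35116 promoters of the same length, and in *CSF2* they ran from 190 to 182 bases before the start. The ISRE, the interferon-stimulated response element, was in 0 of the 7, against 3.02% of all promoters. A match is only a run of letters, and no match says only that these letters are not in this window.

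*MIF*, whose product holds macrophages in place and signals through CD74 with CD44, CXCR2 or CXCR4, lies on chromosome 22 from 23894004 to 23895227 (plus strand). It was at 668, 575 and 584 FPKM in control and at 584, 581 and 529 FPKM in MDM4 libraries. The groups overlapped, with control replicate 1 the highest and MDM4 replicate 3 the lowest library. The means were 609 ± 51.0 and 564 ± 31.0 FPKM (SD, n = 3), a ratio of 0.927 (exact two-sided permutation p = 0.4). The log2 fold change was -0.11 (SE 0.07), and its 95% interval, from -0.28 to 0.06, was the narrowest of the 9 genes. Without control replicate 1 the log2 fold change was -0.04. With 9801 to 16752 reads in a library, counting error was at most 1.01%, against an observed spread of 8.38% in control and 5.49% in MDM4 libraries. *MIF* shares its place with an antisense gene, *MIF-AS1*, and with another gene on its own strand, whose reads may be shared with it. Genes on the opposite strand also overlap *LIF*, *IL6*, *IL18*, *IL32* and *TGFB1*, and their reads cannot be told apart if the counting ignored strand, which the sources used here do not give.

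Of the IL-6 family, *IL6* and *LIF* were among the 10 genes, and reads were found for *LIF*. *IL6*, on chromosome 7 from 22725884 to 22732002, had 0 reads in each of the 6 libraries, which at this depth allows up to 3 reads in a library, as far as counting error goes. *LIF*, whose product acts through LIFR and IL6ST and can hold macrophages in a suppressive state, lies on chromosome 22 from 30240447 to 30246851 (minus strand). It was at 45.4, 40.7 and 30.1 FPKM in control and at 41.3, 43.7 and 28.6 FPKM in MDM4 libraries. The groups overlapped, and replicate 3 was the lowest of each. The means of 38.7 ± 7.86 and 37.9 ± 8.14 FPKM (SD, n = 3) gave an exact two-sided permutation p of 0.8 and a log2 fold change of -0.04 (SE 0.20, 95% interval -0.50 to 0.43). Its direction turned with the library left out, from -0.21 without control replicate 3 to 0.15 without MDM4 replicate 3. Replicates 1 and 2 alone gave a log2 fold change of -0.02 (SE 0.08, limma adjusted p = 0.967). Replicate 3 was at 0.698 of the mean of replicates 1 and 2 in control and at 0.672 in the MDM4 group (limma F test of the replicate number, adjusted p = 0.00114). *LIF* and *CSF2* went together over the 6 libraries (Pearson r = 0.96 on the log2 scale, a description over libraries that share their groups and replicate numbers).

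**Figure D3:**
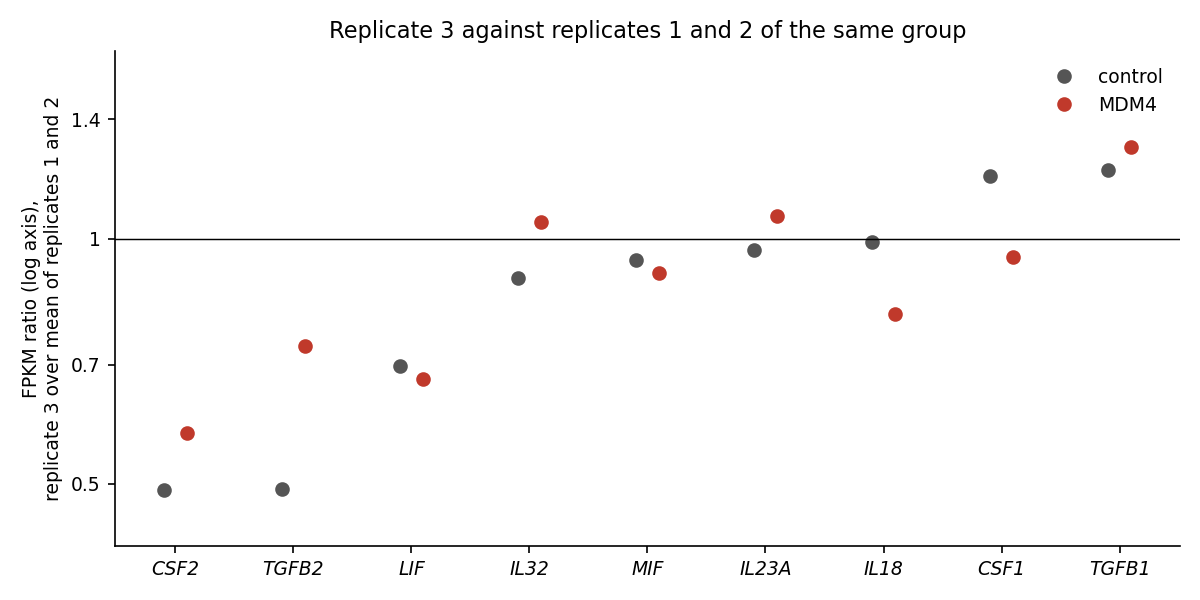
FPKM of replicate 3 divided by the mean of replicates 1 and 2 (log axis) for each cytokine gene, in the control (grey) and MDM4 (red) libraries. CSF2, TGFB2 and LIF lie farthest below 1 in both groups, from 0.492 to 0.738, and TGFB1 lies above 1 in both, at 1.21 and 1.30.

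Over the 6 libraries, *IL18* had the largest log2 fold change of the cytokine genes, and it was above 0. That rank was lost in 3 of the 6 fits with a library left out. Without MDM4 replicate 2, *IL18* was at 0.15, against -0.20 for *CSF1* and -0.19 for *IL32*. Without control replicate 1 it was at 0.22, against -0.28 for *CSF1*, and without control replicate 3 at 0.29, against -0.35 for *CSF2*. IL-18, a member of the IL-1 family, is made as a precursor that caspase-1 cleaves, and it drives interferon-γ in lymphocytes; its gene lies on chromosome 11 from 112143251 to 112164117 (minus strand). It was at 10.5, 13.2 and 11.7 FPKM in control and at 13.6, 17.6 and 12.6 FPKM in MDM4 libraries, from 475 to 697 reads. The groups overlapped, because control replicate 2 was above MDM4 replicate 3. The means were 11.8 ± 1.35 and 14.6 ± 2.65 FPKM (SD, n = 3), a ratio of 1.24 (exact two-sided permutation p = 0.2). The log2 fold change was 0.30 (SE 0.15, 95% interval -0.05 to 0.65, limma adjusted p = 1.0; adjusted p = 0.287 with the replicate block). By pairs the log2 differences were 0.37, 0.41 and 0.10, each upward and the smallest in replicate 3. *IL18* also differed between replicate numbers (adjusted p = 0.0325), with replicate 2 above replicate 1 by 0.35 on the log2 scale. With replicates 1 and 2 alone the difference between the groups was 0.39 (SE 0.14, adjusted p = 0.464).

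In the fit without a block, *IL32* had the smallest p of the cytokine genes between the groups; with the replicate block that of *IL18* was smaller (unadjusted limma p of 0.00440 against 0.00494). IL-32, a cytokine of primates and some other mammals with no known mouse counterpart, induces TNF and other signals in monocytes, and its gene spans 3065297 to 3082192 on chromosome 16 (plus strand), with 35 annotated transcripts; a small nuclear RNA gene on its strand and a noncoding gene on the other overlap it. It was at 39.0, 34.3 and 32.8 FPKM in control and at 30.8, 28.1 and 30.9 FPKM in MDM4 libraries, from 990 to 1768 reads. Each MDM4 library was below each control library, and the gap in replicate 3 was the smallest. The means were 35.4 ± 3.21 and 29.9 ± 1.57 FPKM (SD, n = 3), a ratio of 0.846 (exact two-sided permutation p = 0.1, the smallest possible). The log2 fold change of *IL32* was -0.24 (SE 0.09, 95% interval -0.45 to -0.03). Its unadjusted limma p of 0.0318 ranked 122 among all genes tested and did not survive adjustment (adjusted p = 1.0; 0.294 with the replicate block). By pairs the log2 differences were -0.34, -0.29 and -0.09, and replicates 1 and 2 alone gave -0.31 (SE 0.09, adjusted p = 0.311).

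The promoter at the first of the *IL32* starts that RefSeq gives is shown (250 bases, GRCh38.p14, plus strand, chr16:3065153-3065402). It was picked because *IL32* and the NF-κB target genes described further on both had log2 fold changes below 0. That sign was shared by 7 of the 9 cytokine genes, and the part of NF-κB in the *IL32* values was not tested. Capitals mark a pair of overlapping matches to the NF-κB consensus, on opposite strands, 99 to 89 bases before the start.
IL32: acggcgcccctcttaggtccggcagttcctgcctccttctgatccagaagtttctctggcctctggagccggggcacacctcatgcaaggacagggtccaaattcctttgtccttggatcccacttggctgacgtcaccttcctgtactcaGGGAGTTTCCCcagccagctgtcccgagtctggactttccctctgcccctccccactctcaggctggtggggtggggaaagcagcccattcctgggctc
NF-κB letters were in the promoters of 4 of the 7 genes (*IL32*, *IL23A*, *IL6* and *TGFB1*), against 9.96% of all promoters, and the promoter at the other *IL32* start held none. Whether these letters bear on the levels of these genes was not tested.

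*IL23A* codes for the subunit that is particular to IL-23, a cytokine that keeps inflammatory T cells going and acts on myeloid cells, and lies on chromosome 12 from 56334174 to 56340410 (plus strand). It was at 9.08, 9.23 and 8.87 FPKM in control and at 9.91, 7.57 and 9.32 FPKM in MDM4 libraries. The control libraries lay within the range of the MDM4 libraries, and MDM4 replicate 2 was the lowest. The means of 9.06 ± 0.180 and 8.94 ± 1.22 FPKM (SD, n = 3) did not differ beyond the spread (exact two-sided permutation p = 1.0), with a log2 fold change of -0.03 (SE 0.13, 95% interval -0.32 to 0.26). Its partner subunit gene *IL12B* was near 0, with at most 7 reads in a library. The *IL23A* promoter is shown beside that of *IL32* because it holds both an NF-κB match, 95 to 86 bases before the start, and the letters of AP-1, 77 to 71 bases before it, which 6.57% of all promoters hold (250 bases, GRCh38.p14, plus strand, chr12:56338634-56338883; capitals mark both).
IL23A: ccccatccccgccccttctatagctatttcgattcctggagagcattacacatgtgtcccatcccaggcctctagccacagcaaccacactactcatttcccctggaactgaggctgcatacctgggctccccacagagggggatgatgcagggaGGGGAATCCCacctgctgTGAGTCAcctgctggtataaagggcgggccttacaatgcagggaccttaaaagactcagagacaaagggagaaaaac

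The transforming growth factors were far apart in level, and neither passed the test between the groups. *TGFB1*, whose product is a major suppressive cytokine of many tumours, lies on chromosome 19 from 41301587 to 41353911 (minus strand), where genes on the other strand overlap it. It was at 24.2, 20.4 and 27.1 FPKM in control and at 20.4, 19.4 and 25.7 FPKM in MDM4 libraries. Replicate 3 was the highest library in both groups, and the groups overlapped. The means were 23.9 ± 3.36 and 21.8 ± 3.44 FPKM (SD, n = 3; exact two-sided permutation p = 0.5), with a log2 fold change of -0.13 (SE 0.14, 95% interval -0.47 to 0.20). With a library left out, the latter ran from -0.26 (without MDM4 replicate 3) to -0.04 (without control replicate 3). *TGFB1* differed between replicate numbers, with replicate 3 at 1.21 and 1.30 of the mean of replicates 1 and 2 in control and MDM4 libraries (limma F test, adjusted p = 0.00986).

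*TGFB2*, which codes for a close relative of TGF-β1 with the same receptors, lies on chromosome 1 from 218346235 to 218444619 (plus strand), where the noncoding *TGFB2-OT1* overlaps it on the same strand. It was at 1.09, 1.13 and 0.546 FPKM in control and at 1.10, 0.865 and 0.726 FPKM in MDM4 libraries, from 131 to 290 reads. Replicate 3 was the lowest library of both groups, and the groups overlapped. The means were 0.921 ± 0.325 and 0.897 ± 0.190 FPKM (SD, n = 3; exact two-sided permutation p = 0.9), with a log2 fold change of 0.01 (SE 0.32) and a 95% interval of -0.73 to 0.74. The pairs went in different directions, at 0.02, -0.35 and 0.35 on the log2 scale, and replicates 1 and 2 alone gave a log2 fold change of -0.17 (SE 0.22, adjusted p = 0.862). The replicate number had an adjusted p of 0.0875 for *TGFB2* (limma F test), although replicate 3 was at 0.493 of the mean of replicates 1 and 2 in control and at 0.738 in the MDM4 group.

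By the F test, 4 of the 9 cytokine genes (*CSF2*, *LIF*, *TGFB1* and *IL18*) differed between replicate numbers, 44.4% beside the 34.2% of all genes. Replicate 3 was the lowest library in both groups for 3 of the 9 genes, *CSF2*, *LIF* and *TGFB2*, as for 22.6% of all genes. It was the highest in both groups for 1, *TGFB1*, as for 44.2% of all genes. Whether the effect of MDM4 itself differed in replicate 3 was tested with a product term of group and replicate 3. This term passed an adjusted p of 0.05 in 0 of the 9 genes, beside 0.194% of all genes, and had an unadjusted p under 0.05 in 0 of them, beside 2.27%. Its largest values were 0.52 (SE 0.41) for *TGFB2*, -0.31 (SE 0.30) for *CSF1* and -0.29 (SE 0.24) for *IL18* on the log2 scale. Each rests on 1 pair of libraries, so that the residual spread behind the test comes from replicates 1 and 2 alone. A term that did not pass therefore does not show that the effect was equal.

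The receptors of these cytokines were read from a list of 21 genes, of which 14 passed the filter and 0 were DEGs in limma. An unadjusted limma p under 0.05 was found for 2 of the 14, beside 1.72% of all genes. Each MDM4 library lay below each control library for 1 of the 14, beside 3.76% of all genes, and above for 1, beside 3.1%. Of the 14, 8 had a log2 fold change above 0 and 6 below it, beside 52.8% of all genes below 0, with a median of 0.10. The most abundant were *CD44* (111 and 119 FPKM in control and MDM4), *CD74* (41.4 and 34.7 FPKM) and *CXCR4* (21.3 and 19.6 FPKM), each named above for MIF, while *CXCR2* was at 0.605 and 0.454 FPKM. *CD74*, also the invariant chain of MHC class II, was at 43.7, 41.1 and 39.5 FPKM in control and at 33.6, 31.7 and 38.9 FPKM in MDM4 libraries. These did not overlap (log2 fold change -0.26, SE 0.09, exact two-sided permutation p = 0.1), although MDM4 replicate 3 was close to control replicate 3. In the other direction, *OSMR*, a partner of IL6ST that was picked for its values, was at 12.8, 15.1 and 13.3 FPKM in control and at 17.2, 16.4 and 15.4 FPKM in MDM4 libraries, again without overlap (log2 fold change 0.25, SE 0.10). The largest log2 fold changes were 0.42 (SE 0.38) for *LIFR*, -0.35 (SE 0.26) for *CXCR2* and 0.27 (SE 0.23) for *TGFBR3*, none past the test.

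Among the receptors that make a cell able to answer, picked here for their roles after values were seen, those of the macrophage growth factors and of IL-23 had few reads. *CSF1R* had 7 to 27 reads, *CSF2RB*, the signalling chain for GM-CSF, 2 to 7 reads, and *IL23R* at most 2 reads in a library. Receptors for LIF and TGF-β were present: *IL6ST* was at 16.5 and 18.4 FPKM, *LIFR* at 1.35 and 1.84 FPKM, *TGFBR1* at 11.7 and 12.6 FPKM and *TGFBR2* at 12.9 and 13.9 FPKM in the control and MDM4 groups.

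Genes for release, activation and inhibition of these cytokines, 25 in all, passed the filter in 24 cases, with 0 DEGs in limma. Of the 24, 2 had an unadjusted limma p under 0.05, beside 1.72% of all genes. Each MDM4 library lay above each control library for 2 of the 24, beside 3.1% of all genes, and below for 1, beside 3.76%. The log2 fold changes of the 24 had a median of -0.02, with 9 above 0 and 15 below it, beside 52.8% of all genes below 0. Once scaled to TPM, 13 of these log2 fold changes were above 0 and 11 below it. The largest was that of *PYCARD*, the inflammasome adaptor ASC, which brings caspase-1 together. It was at 13.1, 11.2 and 14.0 FPKM in control and at 8.81, 7.97 and 10.8 FPKM in MDM4 libraries. The groups did not overlap, and each pair was lower with MDM4 (log2 fold change -0.47, SE 0.15, limma adjusted p = 1.0, exact two-sided permutation p = 0.1). *CASP1* itself was below the filter, at 0.560 and 0.411 FPKM, while *CASP4* was at 10.9 and 10.2 FPKM, *GSDMD*, the pore that lets IL-18 out, at 18.7 and 16.7 FPKM and *IL18BP*, which binds and blocks IL-18, at 5.51 and 5.83 FPKM. These 4 were picked for their link to *IL18*. On the side of TGF-β, *ITGAV*, the integrin chain that frees it from its latent complex, was at 17.3, 21.2 and 21.3 FPKM in control and at 21.8, 21.6 and 26.5 FPKM in MDM4 libraries (log2 fold change 0.23, SE 0.12), picked because its groups did not overlap. The sheddase *ADAM10*, the other gene of the list with each MDM4 library above each control library, was at 26.8, 31.4 and 29.9 FPKM in control and at 33.5, 34.3 and 34.5 FPKM in MDM4 libraries (log2 fold change 0.22, SE 0.08, limma adjusted p = 1.0). *FURIN*, which cleaves the precursor, was the most abundant gene of the list, at 41.1 and 37.9 FPKM, then *LTBP3*, a latent TGF-β binding protein, at 35.0 and 33.2 FPKM, and *ADAM10*, at 29.3 and 34.1 FPKM. *MMP2* and *PRTN3* had log2 fold changes of -0.32 (SE 0.24) and 0.32 (SE 0.50), the latter from at most 55 reads.

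Related cytokines, 32 genes, were mostly low: 16 passed the filter, 15 lay below it and *IL27* was at 0. None was a DEG in limma or had an unadjusted limma p under 0.05, which 1.72% of all genes had. Of the 16 tested, 6 had a log2 fold change above 0 and 10 below it, beside 52.8% of all genes below 0. Each of the 16 overlapped between the groups, where 6.85% of all genes did not. The most abundant were *BMP4* (143 and 146 FPKM), *KITLG*, the ligand of KIT (105 and 129 FPKM), and *GDF15*, a stress-induced cytokine (107 and 118 FPKM). The largest log2 fold changes were those of *TNF* (-0.46, SE 0.37), *IL7* (-0.40, SE 0.43) and *IL10* (-0.31, SE 0.15). *TNF* was at 3.56, 3.51 and 4.86 FPKM in control and at 2.85, 1.60 and 4.98 FPKM in MDM4 libraries, lower in replicates 1 and 2 and about level in replicate 3. Of the closest relatives, picked for kinship, *DDT*, the MIF homologue, was at 41.0 and 38.6 FPKM, *IL34*, the other ligand of CSF1R, was below the filter at 0.473 and 0.331 FPKM, and *TGFB3* was at 0.647 and 0.706 FPKM.

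Target genes of pathways that control cytokine genes were read from 2 further lists. The NF-κB list held 20 genes, of which *IL8* was not found under that symbol. All 19 NF-κB target genes tested had a log2 fold change below 0 (18 of 19 under quantile normalization), beside 52.8% of all genes, with a median of -0.21. Their medians by pair were -0.43, -0.28 and -0.08 in replicates 1 to 3, and their summed FPKM was 688, 665 and 593 in control and 533, 545 and 575 in MDM4 libraries. The largest were the neutrophil chemokines *CXCL2* (-0.72, SE 0.21) and *CXCL3* (-0.62, SE 0.16) and the chemokine *CCL20* (-0.63, SE 0.33), and the most abundant were *TNIP1* (118 and 102 FPKM), *ICAM1* (99.5 and 86.3 FPKM) and *TNFAIP2* (94.4 and 74.2 FPKM). None was a DEG over the 6 libraries in limma, where 5 had an unadjusted p under 0.05, beside 1.72% of all genes. Over replicates 1 and 2 alone, 1 of the 19, *CXCL2*, was a DEG, beside 0.29% of all genes. For the cytokine genes the medians by pair were -0.13, -0.07 and -0.07, and for all genes -0.02, 0.0016 and -0.0043.

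Interferon-stimulated genes were set beside them because type I interferon acts on many of the same cells. All 18 tested had a log2 fold change below 0, with medians by pair of -2.15, -1.74 and -0.02. Their summed FPKM was 664, 690 and 228 in control and 197, 207 and 218 in MDM4 libraries, so that control replicate 3 was already at the level of the MDM4 libraries. None was a DEG over the 6 libraries in limma, where 16 had an unadjusted p under 0.05, beside 1.72% of all genes. Over replicates 1 and 2 alone, 13 of 18 were DEGs, beside the 0.29% of all genes. Several genes of this list were picked by the study from these libraries, so that their direction is not independent evidence. The largest were *XAF1* (-2.41, SE 0.64), *IFI6* (-2.29, SE 0.72) and the antiviral *MX1* (-2.01, SE 0.60), and the most abundant *ISG15* (188 and 90.5 FPKM) and *IFI6* (118 and 17.2 FPKM). *IFI6* was at 162, 170 and 21.3 FPKM in control and at 15.2, 16.7 and 19.6 FPKM in MDM4 libraries. Over replicates 1 and 2 alone, 0 of the 9 cytokine genes were DEGs, and their largest log2 fold change was the 0.39 of *IL18*. The part of these pathways in the cytokine values was not tested.

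**Figure D4:**
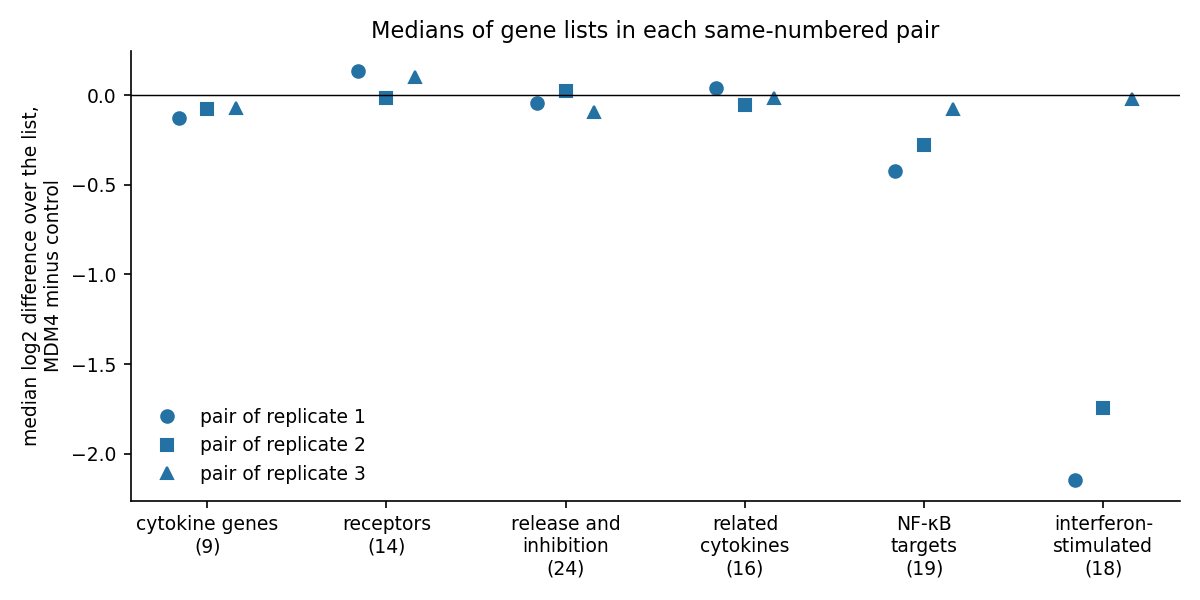
Median log2 difference, MDM4 minus control, in each same-numbered pair of libraries for the cytokine genes and for 5 gene lists, with the number of genes tested in brackets. The cytokine genes, receptors, release and inhibition genes and related cytokines lie near 0 in each pair, NF-κB targets lie at -0.43, -0.28 and -0.08, and interferon-stimulated genes at -2.15 and -1.74 in pairs 1 and 2 and at -0.02 in pair 3.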

How the data were processed

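RNA sequencing of SW480 cells gave 3 control and 3 MDM4 libraries, made from oligo(dT)-enriched mRNA. The labels call the second group "exercised", which was read as MDM4, the only group other than control. The authors deposited FPKM values for 19225 symbols (2036 of them at 0 throughout); the columns carry a letter and a number, read as group and replicate. The aligner, annotation and strand setting are not given in the sources used here. Since a gene's values fell on whole multiples of 1 step per library, whole reads (within 0.001 of a read) were recovered for 100.0% of the 17189 genes above 0. These reads served for depth, counting error and voom, which called 0 DEGs without and 15 with the replicate block. Counting error and the floor of 3 reads cover counting only, while the intervals of log2 fold changes come from limma and rest on the spread between libraries.

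A pseudocount of 0.1 was added to the FPKM before the log2 was taken, and 12884 genes whose mean reached 0.5 FPKM entered limma 3.58.1 under R 4.3.3 (lmFit, then eBayes with trend; no block; Benjamini-Hochberg adjustment); fold changes are on that scale, which understates those of low genes. The limma fit without a block was tested on simulated data that held no shift of replicate 3, and the other fits were not. For single genes, the group means were compared by exact permutation of the libraries (Python 3.11.15, numpy 2.4.6, pandas 2.3.3, matplotlib 3.10.9). The t quantiles of the intervals came from scipy 1.17.1. Each library's deviation from its group mean was taken over all genes tested. Control and MDM4 libraries of the same number had correlations of 0.46, 0.45 and 0.78. Replicate 3 went against the others at -0.56 to -0.62, and replicates 1 and 2 were not told apart (0.44 and 0.46). These values thus bear on replicate 3 alone, and the pairing of replicates 1 and 2 rests on their numbers. The replicate block was an alternative, as were replicates 1 and 2 alone, the omission of each library, eBayes without trend, and other scalings, filters and pseudocounts; the F test of the replicate number was added after values were seen.

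The cytokine genes and lists were chosen with earlier results of these data known, and the lists were written from general knowledge. Named are the cytokine genes, *MDM4*, the marker genes and, of each list, the 3 most abundant genes and the 3 with the largest absolute log2 fold change; others are said to be picked, and 1 gene that the rule names is not reported here. Positions come from GENCODE release 29 (GRCh38) and promoters from RefSeq (GRCh38.p14), which may not be the authors' build. Protein sequences were not used here.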

Additional observations from a re-analysis of the deposited data

How the results depend on the processing

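No cytokine gene was called in any of the 18 other settings run, also with no limit on the fold change. Of 161 values of the 9 genes, 145 kept their direction and 16 turned it, all of them from log2 fold changes of 0.04 or less in size. DEGs among all genes numbered 2 with the replicate block, which changed no call of a cytokine gene, 37 over replicates 1 and 2 alone, 15 with voom on recovered reads and the block, and from 0 to 16 with a library left out, the 16 without control replicate 3 and 1 without MDM4 replicate 3. The genes without overlap, *CSF1* and *IL32*, became 1 scaled to TPM (beside 6.72% of all genes) and 1 under median ratio scaling (beside 7.0%). Over replicates 1 and 2 alone there were 5 (*CSF2*, *TGFB1* and *IL18* were added, beside 38.7% of all genes). With a library left out there were from 2 to 4. The 4 were found without control replicate 2 (*MIF* and *IL18* added, beside 21.1% of all genes) and without MDM4 replicate 3 (*TGFB1* and *IL18* added, beside 26.2%). The log2 fold change of *CSF2* was 0.016 scaled to TPM and 0.0014 under quantile normalization, and ran from -0.35 to 0.25 with a library left out; that of *IL23A* was 0.00038 scaled to TPM and ran from -0.11 to 0.085; that of *LIF* ran from -0.21 to 0.15. With a library left out, those of *CSF1* ran from -0.28 to -0.15, *MIF* from -0.15 to -0.04, *IL18* from 0.15 to 0.39, *IL32* from -0.29 to -0.17 and *TGFB1* from -0.26 to -0.04. The log2 fold change of *TGFB2* was -0.0047 and -0.0077 with pseudocounts of 0.5 and 1, -0.17 over replicates 1 and 2 alone and -0.025 with voom and the block, and ran from -0.29 to 0.17; it dropped out at a mean of at least 1 FPKM. The causes were not tested. Of the 9 genes, *CSF1* and *TGFB2* had the fewest reads, with as few as 166 and 131 in a library. For *TGFB2*, counting error alone gives a coefficient of variation of 8.74% in that library. The observed values were 35.3% and 21.1% in the control and MDM4 libraries.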

Other observations

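Of the 3 cytokine genes with the largest absolute log2 fold change, the genes most like each over the 6 libraries (highest Pearson r of log2(FPKM + 0.1)) were *EMB*, *MBP* and *PLAC1* for *IL18* (each r = 0.98), *TIMP1* (r = 0.995), *PRKAR1B* and *ITPKA* (both r = 0.98) for *IL32*, and *EIF2B4*, *CENPV* and *PMVK* (each r = 0.99) for *CSF1*. With 6 libraries, 20 genes exceeded r = 0.95 with *IL32*, 9 with *IL18* and 8 with *CSF1*, and all these values share groups, libraries and depth. *TIMP1*, an inhibitor of matrix metalloproteinases, was at 87.8, 80.2 and 77.3 FPKM in control and at 74.9, 71.3 and 74.6 FPKM in MDM4 libraries, so that, as for *IL32*, control replicate 1 was the highest and MDM4 replicate 2 the lowest library.

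Among the cytokine genes themselves, *IL18* and *IL32* ran most against each other (r = -0.86), then *CSF2* and *TGFB1* (r = -0.83), while *CSF2* and *TGFB2* ran together (r = 0.91). The most different epithelial marker was *VIL1*, a gene of the intestinal brush border, at 2.96, 3.30 and 4.08 FPKM in control and at 2.12, 1.88 and 3.14 FPKM in MDM4 libraries, with overlap (log2 fold change -0.54, SE 0.23). Of the 7 epithelial markers tested, 3 did not overlap between the groups, beside 6.85% of all genes. *EPCAM* was at 164, 161 and 167 FPKM in control and at 157, 156 and 160 FPKM in MDM4 libraries (log2 fold change -0.06, SE 0.05). *CDX2*, a transcription factor of the intestine, was at 12.3, 12.6 and 14.2 FPKM against 11.4, 9.99 and 12.2 FPKM (log2 fold change -0.22, SE 0.11), and the adhesion gene *CDH1* was higher in each MDM4 library (20.5 ± 1.12 and 22.6 ± 0.927 FPKM, SD, n = 3).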
